A study of Mus musculus with 6 samples.

Results

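The 10 genes described here are the D-type cyclins Ccnd1, Ccnd2 and Ccnd3, their kinases Cdk4 and Cdk6, the CDK inhibitors Cdkn1b, Cdkn2c and Cdkn2d, and the pocket proteins Rb1 and Rbl2, out of 18194 genes that the arrays measure with a probe set annotated to 1 gene. They were chosen by name, with earlier results of these data known. Messenger RNA was measured on 6 one-colour Affymetrix arrays of 32D, a murine myeloid line that depends on interleukin-3. In 3 samples the cells carried the empty vector (construct A1-EV), and in the other 3 they expressed miR-9 and miR-9* (construct C2-MiR-9). Both arms were grown with 10 ng/ml murine interleukin-3 and 10% fetal calf serum, and the labels name no other agent for either. The labels used here give neither the promoter of the construct nor whether an arm was a clone or a pool. The labels give replicate numbers 1 to 3 in each arm without saying how the cultures were separated, so p-values measure the spread between these samples, which may be technical.

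Cells pass from G1 into S phase when D-type cyclins, which growth factors induce, bind and activate Cdk4 or Cdk6. These kinases phosphorylate the pocket proteins and so release E2F transcription factors. INK4 inhibitors such as Cdkn2c (p18) and Cdkn2d (p19) bind the kinases themselves, whereas Cdkn1b (p27), of the Cip/Kip family, binds cyclin-CDK complexes and is best known for holding cyclin E with Cdk2 inactive. In interleukin-3-dependent myeloid cells this machinery links cytokine signalling to division.

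The 2 strands whose expression separates the arms are encoded together at each of 3 mouse loci, and they are shown because their seeds differ. In RefSeq (GRCm38.p6) the 5′ strand, named miR-9 in the labels, lies at chr3:88215613-88215635 in Mir9-1, at chr13:83738821-83738843 in Mir9-2 and at chr7:79505279-79505301 in Mir9-3, each on the + strand. Capitals mark the seed, bases 2 to 8, through which a microRNA recognises most of its targets.
miR-9 (miR-9-5p): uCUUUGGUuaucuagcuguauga
miR-9* (miR-9-3p): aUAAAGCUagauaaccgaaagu
Both have the same letters at all 3 loci. The arrays do not measure these short RNAs, so their level in the samples is not analysed here.

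Each value below is a deposited MAS5 signal, an intensity on a linear scale, of the gene's probe set with the highest mean. Differences between the arms are miR-9/9* minus empty vector on the log2(signal + 16) scale, which understates changes of dim genes, and intervals are 95% intervals from limma. All 10 genes passed the filter on dim probe sets, a signal of about 13.0, and were tested among 10201 genes. Median signals ran from 12.0 to 15.2 per array, and precision is limited by having 3 arrays in each arm. Of 10 myeloid markers 9 were above the filter (Elane was below it), against 1 of 5 lymphoid markers, Cd8a. Of those 9, Csf2rb, the signalling chain shared by the interleukin-3 receptor, was lower with the replicate number as a block, at 2218 ± 844 with the vector and 1735 ± 663 with miR-9/9* (difference -0.35, lower in 3 of 3 pairs, limma adjusted p = 0.0364, and 0.999 without the block). That call did not hold when replicate 1 (adjusted p = 0.219) or 2 (0.163), the filter (0.122) or the variance trend (0.140) was left out. In the same list Csf2rb2 was at 1439 ± 679 against 1452 ± 731 (difference -0.013, limma adjusted p = 0.963 with the block). Il3ra was at 110 ± 19.7 against 79.6 ± 9.15 (difference -0.39, limma adjusted p = 0.185 with the block). Marker lists of other cell types moved with the arms, with 0 markers past the threshold in limma without a block. With the replicate number as a block, 3 of 6 late neutrophil markers were lower in the miR-9/9* arm, and 3 of 7 erythroid, 4 of 6 megakaryocyte and 2 of 3 eosinophil markers were higher. Of all genes tested, 1.51% were higher and 1.44% lower in that fit. Summed signals of these lists, dim members included, overlapped between the arms, but within replicate numbers the late neutrophil sum was lower and the other 3 were higher with miR-9/9* in 3 of 3 pairs. They ran from 1014 to 3913 with the vector and from 252 to 2652 with miR-9/9* for late neutrophil, from 2781 to 3966 and from 3834 to 3991 for erythroid, from 1222 to 2264 and from 1495 to 2850.3 for megakaryocyte, and from 255 to 1371 and from 274 to 3610.5 for eosinophil markers. The red cell markers Alas2 and Slc4a1 were below the filter. The part of these cell types in the values below was not tested. In bulk samples fewer cells of a type and less RNA per cell cannot be told apart.

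None of the 10 genes changed past the threshold between the arms. In limma with Benjamini-Hochberg adjustment over all genes, 0 of 10 passed an adjusted p of 0.05, against 0.0588% of all genes (0.0196% higher and 0.0392% lower), and 0 had an unadjusted p under 0.05, against 4.62%. With the replicate number as a block, which compares the arms within a number, again 0 passed, against 2.95% of all genes. Ccnd2 and Cdkn2c, both higher, had an unadjusted p under 0.05 with the block. That is 20% of the members, against 17.0% of all genes, of which 8.70% were higher and 8.27% lower. In 0 of 10 were the arms fully separated, against 5.10% of all genes in the direction of higher and 4.73% in that of lower. Differences ran from -0.014 for Rb1 to 0.25 for Ccnd2. Their median was 0.14, beside 0.0091 over all genes tested, and 8 of 10 were above 0, beside 52.4% of all genes. Within replicate numbers, 5 members (Ccnd2, Cdkn1b, Cdkn2c, Cdkn2d and Rbl2) were higher in 3 of 3 pairs, against 21.0% of all genes, and 0 were lower in 3 of 3, against 18.0%.

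**Figure D1:**
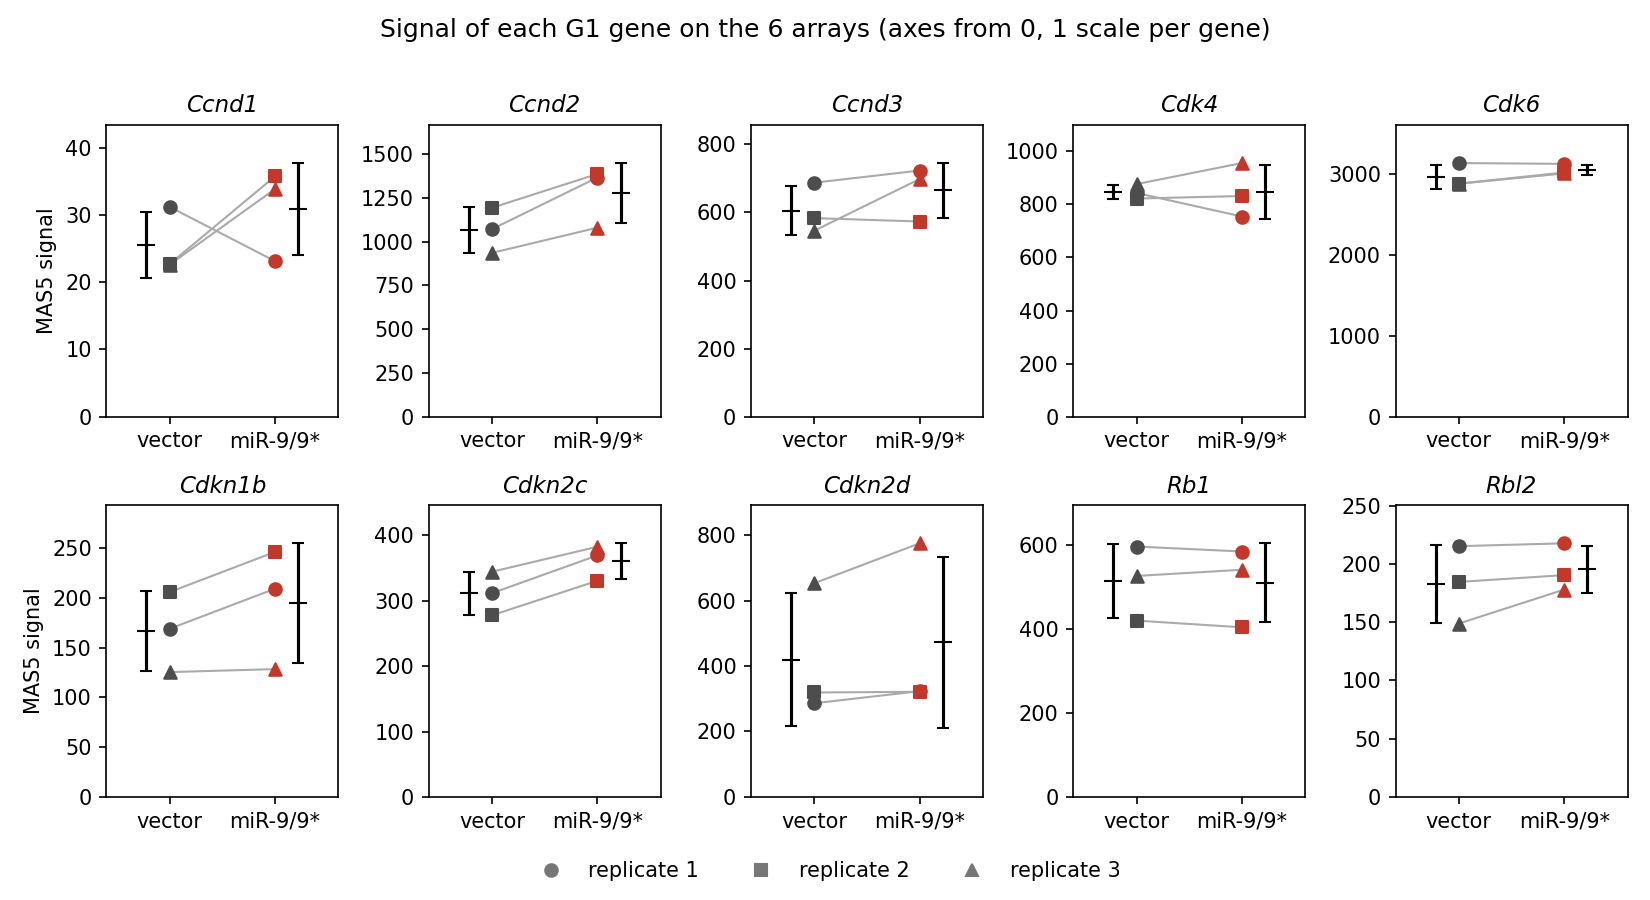
MAS5 signal of the representative probe set of each gene on the 6 arrays. Grey symbols are empty vector, red symbols miR-9/9*, lines join arrays of 1 replicate number, and bars beside them give the mean and SD of 3 arrays. The arms overlap in all 10 panels, and replicate 3 of Cdkn2d stands above the other arrays in both arms.

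Among the D-type cyclins, Ccnd2 (probe set 1434745_at), the form that interleukin-3 and STAT5 signalling are known to induce in blood cells, stood at 1071, 1194 and 936 with the vector and at 1367, 1387 and 1080.1 with miR-9/9*. Each miR-9/9* array was above the vector array of its number, and the lowest miR-9/9* array lay inside the range of the vector arrays. Means were 1067 ± 129 and 1278 ± 172 (SD, n = 3 each), a difference of 0.25 with an interval from -0.06 to 0.57 (limma adjusted p = 0.999). With the block the interval was 0.10 to 0.41 and the adjusted p 0.0911, the smallest of the 10 genes. Of the 7 probe sets of Ccnd2, all above the filter, 6 were higher in 3 of 3 pairs, with differences from 0.18 to 0.32. The exception was the dimmest, 1416124_at, at 27.2 ± 6.78 against 24.4 ± 4.04. The probe sets measure 1 gene in the same samples and are not replicates of the difference.

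Ccnd3 (1415907_at), the D-type cyclin that many blood cells rely on, stood at 688, 583 and 546 with the vector and at 723, 573 and 698 with miR-9/9*. The arms overlapped, and replicate 2 was slightly lower in the miR-9/9* arm. The difference was 0.13 (interval -0.17 to 0.43, limma adjusted p = 0.999, and 0.475 with the block). Its other 2 probe sets were dim and differed in sign, at 0.24 and -0.14. Ccnd1 (1448698_at), the D-type cyclin typical of epithelial and mesenchymal cells, was dim, at 31.2, 22.7 and 22.6 against 23.1, 35.7 and 33.8. Replicate 1 was lower and replicates 2 and 3 were higher in the miR-9/9* arm. Its difference of 0.17 had an interval from -0.21 to 0.56 (limma adjusted p = 0.999, and 0.672 with the block). A further probe set of Ccnd1 above the filter was at 23.0 ± 5.54 against 29.1 ± 9.94, and the third lay below the filter.

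The kinases had the narrowest unblocked intervals of the 10 genes. Cdk6 (1435338_at) stood at 3131, 2877 and 2876 with the vector and at 3121, 3014 and 3003 with miR-9/9*. All 3 miR-9/9* arrays lay inside the range of the vector arrays. The difference was 0.041, with an interval from -0.19 to 0.27, or 0.878-fold to 1.21-fold on the shifted scale. Its probe sets 1455287_at and 1460291_at differed by 0.034 and 0.16. Cdk4 (1422441_x_at) stood at 843, 822 and 877 with the vector and at 754, 832 and 956 with miR-9/9*. The miR-9/9* arm held both the lowest and the highest array. Means were 847 ± 27.4 and 847 ± 102, a difference of -0.0059 with an interval from -0.27 to 0.26. Its 3 probe sets lay between -0.047 and 0.067. Neither kinase passed in limma (adjusted p = 0.999 for both, and 0.847 for Cdk6 and 0.982 for Cdk4 with the block).

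Of the INK4 inhibitors, Cdkn2c (1416868_at) stood at 312, 278 and 344 with the vector and at 369, 330.5 and 383 with miR-9/9*. It was higher within each replicate number, by 0.23, 0.24 and 0.15, although the arms overlapped through the vector array of replicate 3. The difference of 0.21 (limma SE 0.121) had an interval from -0.07 to 0.48 without the block and from 0.05 to 0.36 with it (adjusted p = 0.999 and 0.160). Cdkn2d (1416253_at) stood at 286, 319 and 653 with the vector and at 323, 321 and 775 with miR-9/9*. Replicate 3 was high in both arms, and the difference between the arms was small beside that between numbers. At 0.14 it had an interval from -0.73 to 1.01 without the block, and from -0.02 to 0.30 with it (limma adjusted p = 0.999 and 0.375). Each INK4 gene has 1 probe set here, so no further one checks these values.

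Cdkn1b (1434045_at) stood at 169, 206 and 125.5 with the vector and at 209, 246 and 129 with miR-9/9*. The order of the numbers was the same in both arms, with replicate 2 the highest and replicate 3 the lowest. Its difference of 0.19 was made up of 0.28, 0.24 and 0.03 within the numbers. The interval ran from -0.37 to 0.74, and with the block from -0.01 to 0.38 (limma adjusted p = 0.999 and 0.318). Its further probe set was below the filter, at 5.95 ± 1.87 against 5.80 ± 4.19.

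**Figure D2:**
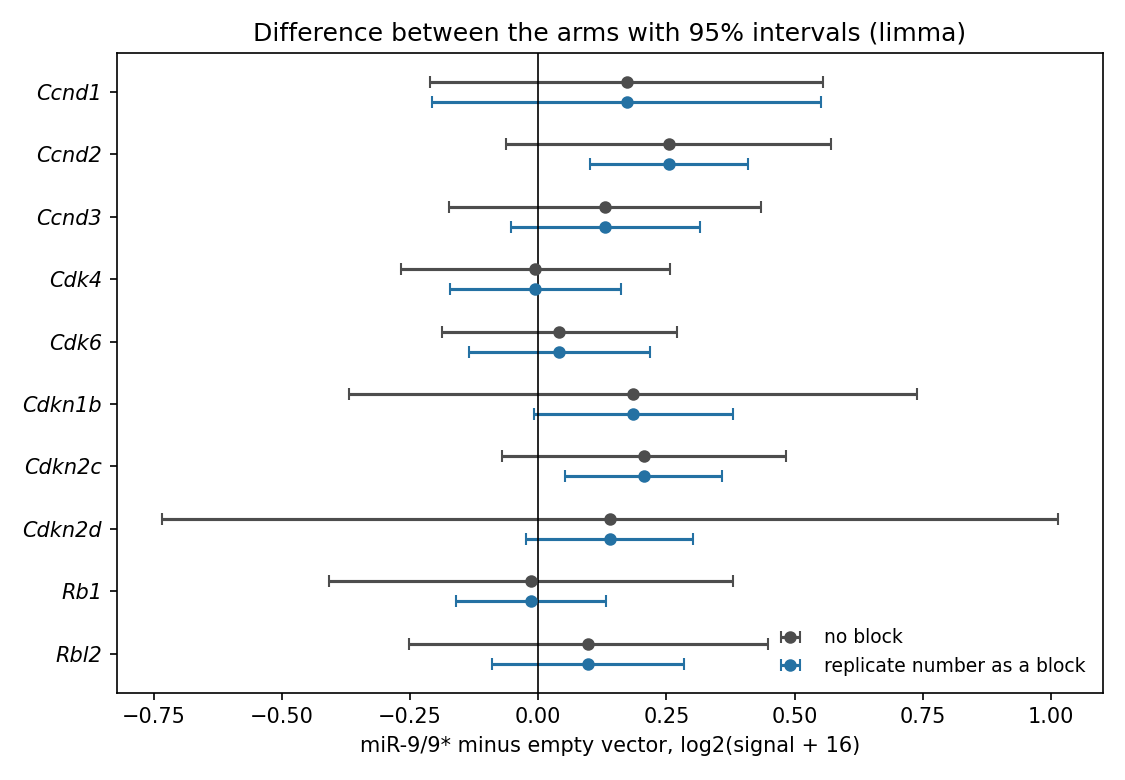
Difference between the arms (miR-9/9* minus empty vector, log2(signal + 16)) of each gene, with 95% intervals from limma without a block (grey) and with the replicate number as a block (blue). All 10 grey intervals include 0, and with the block those of Ccnd2 and Cdkn2c do not, although neither gene passed after adjustment over all genes.

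The pocket proteins Rb1 and Rbl2, which hold E2F factors in check until they are phosphorylated, had mean differences between the arms of under 0.1. Rb1 (1417850_at) stood at 595, 419 and 525 with the vector and at 584, 403 and 540.2 with miR-9/9*. Numbers 1 and 2 were slightly lower and number 3 slightly higher in the miR-9/9* arm. The difference was -0.014 (interval -0.41 to 0.38, and -0.16 to 0.13 with the block). A further probe set of Rb1 near the filter, 1444400_at, was at 13.0 ± 2.68 against 14.8 ± 5.53, a difference of 0.075. Rbl2 (1425981_a_at), also called p130, the pocket protein most prominent in resting cells, stood at 215, 185 and 149 with the vector and at 218, 190.4 and 178 with miR-9/9*. It was higher in 3 of 3 pairs, by 0.015, 0.041 and 0.24, with a mean difference of 0.097 (interval -0.25 to 0.45). Its second probe set was at 52.9 ± 3.31 against 53.5 ± 18.5 with pairs of both signs. Neither passed in limma (adjusted p = 0.999 for both, and 0.944 for Rb1 and 0.620 for Rbl2 with the block).

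**Figure D3:**
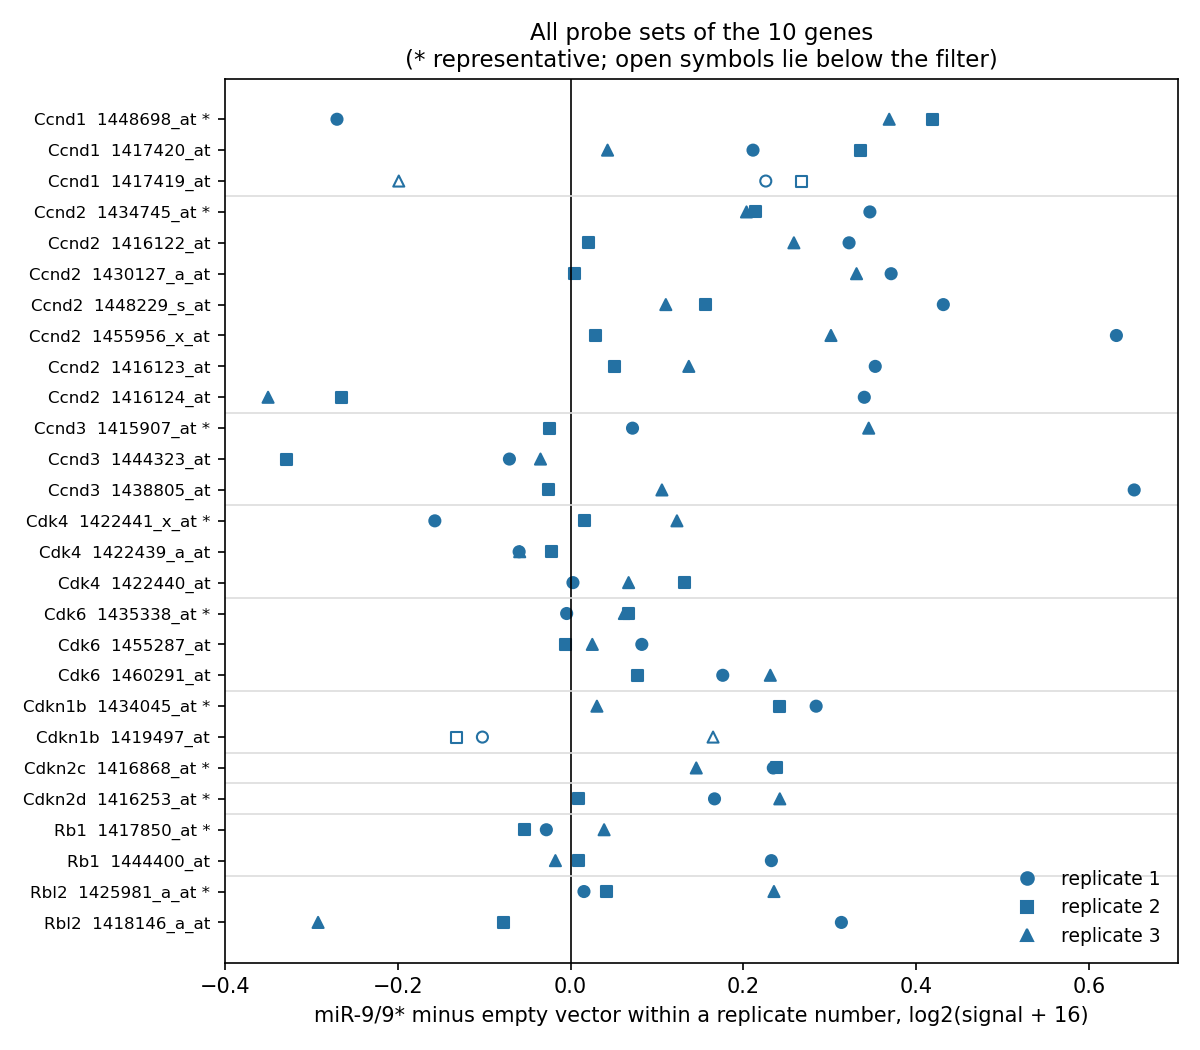
Difference between the arms within each replicate number for all 27 probe sets of the 10 genes, 25 of them above the filter (filled symbols). Of those 25, 13 were higher in 3 of 3 pairs, 6 of them from Ccnd2, against 20.1% of all probe sets above the filter, and 2 were lower in 3 of 3, against 16.3%, and 0 passed in limma with or without the block.

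Some members also differed between replicate numbers, in both arms alike. In 9 of 10 genes, all but Ccnd1, the range of the 3 numbers' means exceeded the difference between the arms, as it did in 84.2% of all genes tested, and a range over 3 means tends to exceed a single difference. Cdkn2d in replicate 3 was above the mean of replicates 1 and 2 by 1.07 in the vector arm and 1.23 in the miR-9/9* arm. The SD of its 3 number means was larger than that of 98.9% of all genes tested. Cdkn1b in replicate 3 was lower by 0.52 and 0.75, with an SD above 94.2% of genes, whereas that of Cdk6 was above only 7.94%. Ccnd2 (-0.27 and -0.35) and Rbl2 (-0.39 and -0.18) were also below in both arms. The design does not compare the numbers, so these values carry no test, and the genes were picked for this description from their values. The directions of these 4 genes held under median centring and quantile normalization. Under quantile normalization Cdk6 in replicate 3 moved to -0.35 with the vector and -0.14 with miR-9/9*.

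Replicate 3 also had the highest summed signal of 7 markers of dividing cells, such as Mki67 and Top2a. The sums were 9407, 8736 and 11479 with the vector and 8598, 8400.2 and 10737 with miR-9/9*. Between the arms this sum was lower with miR-9/9* in 3 of 3 pairs. The median difference of the 7 markers was -0.097, with 0 of 7 above 0, and 0 passed in limma with or without the block. The summed signal of 21 S phase genes was likewise highest there, at 29724 and 27725, against 21980.0 to 25112 on the other arrays. Its late neutrophil markers summed to 1226 and 999.9, between those of replicate 1 (3913 and 2652) and replicate 2 (1014 and 252). The part of cell division or cell makeup in the values of Cdkn2d and Cdkn1b was not tested. The median signal of replicate 3 was the lowest of each arm, at 12.0 and 12.9.

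**Figure D4:**
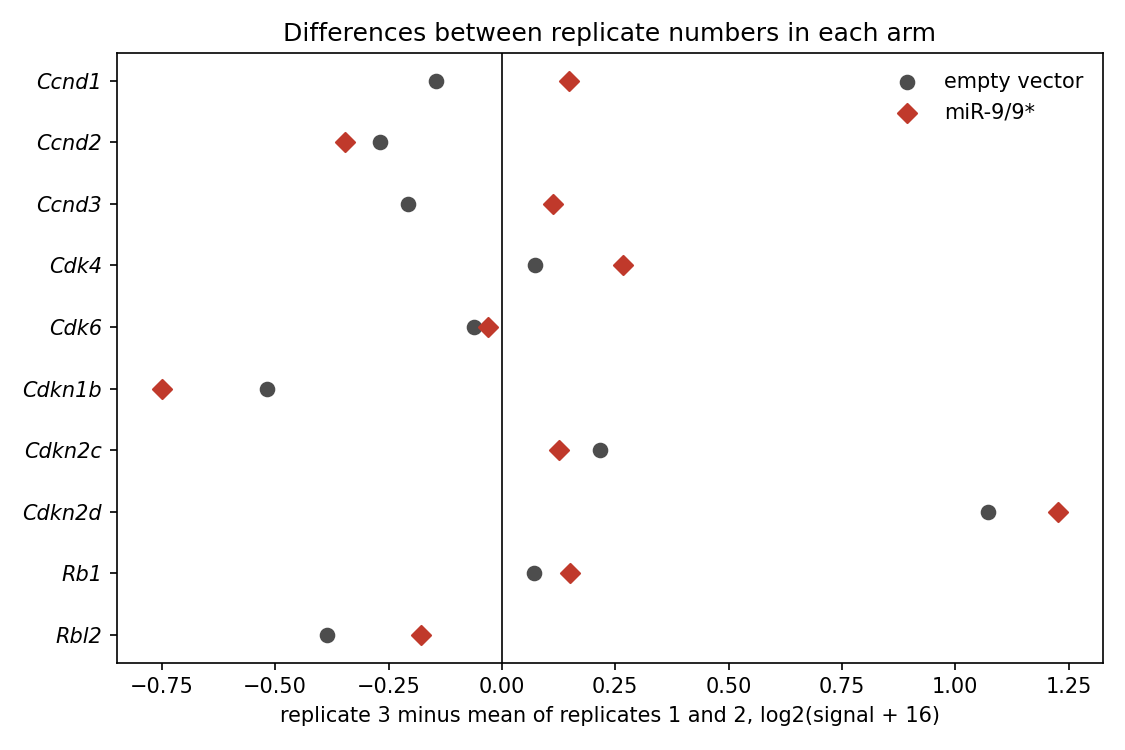
Replicate 3 minus the mean of replicates 1 and 2, log2(signal + 16), for each gene in the empty vector arm (grey circles) and the miR-9/9* arm (red diamonds). Cdkn2d lies at 1.07 and 1.23, Cdkn1b at -0.52 and -0.75, and on this scale Cdk6 is close to 0 at -0.06 and -0.03.

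Among the rest of the G1 machinery 1 gene passed the test, with the block. Of 36 other genes of G1 and the restriction point, 33 were above the filter. The inhibitors Cdkn1c, Cdkn2a and Cdkn2b were below it. In limma 0 of the 33 passed without the block. With the block E2f6 rose and 0 fell, against 1.51% of all genes higher and 1.44% lower. The list's median difference was 0.0011, beside 0.0091 over all genes tested.

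E2f6, a repressive E2F that does not bind pocket proteins, stood at 496, 422 and 475 with the vector and at 710.2, 572 and 709.9 with miR-9/9*. Every miR-9/9* array was above every vector array. The difference was 0.50 (limma adjusted p = 0.00677 with the block, and 0.493 without it). Its second probe set, near the filter, was at 16.1 ± 4.23 against 17.0 ± 6.50. The blocked call was lost when the probe sets were averaged (difference 0.26, adjusted p = 0.167). Dropping the variance trend also ended it, with the difference still at 0.50 (adjusted p = 0.0765).

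Of 21 S phase genes that E2F factors are known to drive, 0 passed in limma in either fit, and their median difference was 0.019. The 2 with the highest mean were Pcna, the sliding clamp of DNA polymerase, at 4366 ± 1309 against 4334 ± 648, and Mcm7, a subunit of the replicative helicase, at 2837 ± 279 against 3023 ± 257. Of 9 measured regulators on the mitogen side, 0 passed in either fit. The survival kinase gene Pim1, induced by STAT5, was at 1902 ± 267 against 2078 ± 242, and Id1, an inhibitor of basic helix-loop-helix factors, at 1301 ± 472 against 1209 ± 505. Foxo1, the tenth, was below the filter.

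Over the 6 arrays the genes whose levels followed Ccnd2 most closely were the CDK family kinase gene Cdk10, the membrane fusion gene Ykt6, the chloride exchanger gene Clcn3, the transcriptional repressor gene Zbtb18 and Adgb, with Pearson correlations from 0.994 for Cdk10 to 0.988 for Adgb. The order depended on the scaling: with median centring the correlation of Cdk10 was 0.684 and that of Ykt6 0.907, and with quantile normalization that of Cdk10 was 0.222, while Clcn3, Zbtb18 and Adgb stayed between 0.945 and 0.986 under both. They were picked from 10201 genes on 6 arrays that share their replicate numbers, and the values are a description.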

How the data were processed

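Total RNA was extracted with Trizol and 6 ug per sample was made into biotinylated cRNA, per the labels' protocols. The authors deposited 1 intensity per probe set and array, made with MAS5 (no version), per the submitters' processing notes. Their linear scale, with a mean of 100 per array after trimming 2% at each end, was read from the values. No build applies and no scanner settings are given in the sources used here.

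Of 45101 probe sets, 34958 carry 1 gene symbol in a 2016 platform annotation, 932 several and the rest none. By Entrez ID 34754 were matched to RefSeq, which changed 0 symbols. Each gene was represented by its probe set with the highest mean signal. Probe sets with a mean log2(signal + 16) below the median of all probe sets (4.86) were left out. The test was limma 3.58.1 under R 4.3.3 (lmFit and eBayes with a variance trend, two-sided), adjusted over 10201 genes at 0.05, after a test on simulated data. No block was used in the main design (4 residual degrees of freedom). Deviations from the arm means correlated between same-numbered arrays at 0.492, 0.617 and 0.683, above the limit of 0.1, so the pairing is read from the data, and blocked values (2 residual degrees of freedom) stand beside the others.

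All members are named. The list of other G1 genes gives up to 6 called genes with the block, or the 3 brightest. The S phase list gives up to 4, or the 2 brightest, and the mitogen list any called gene and the 2 brightest. The 5 genes most correlated with the member of smallest blocked p are named. Csf2rb, Rbl1 and Cdkn1a were named after their values were seen. Members and lists were chosen with earlier results of these data known. Alternatives changed the pseudocount, filter, normalization, variance model, array weights, threshold or averaging of probe sets, or left out arrays.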

Additional observations from a re-analysis of the deposited data

How the results depend on the processing

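Across 288 values of the 10 members under the alternatives, 0 passed an adjusted p of 0.05 in limma, 269 kept their direction and 19 changed sign. Ccnd2, Ccnd3, Cdk6, Cdkn1b and Cdkn2c kept their direction in all 29 alternatives each. Ccnd1 was -0.0065 with array weights and was not tested under the stricter filter. Cdk4 was 0.0075 with quantile normalization and 0.0048 with averaged probe sets, both with and without the replicate block. Rb1 was 0.030 with averaged probe sets, with and without the block. Leaving out 1 array moved Cdk4 from -0.095 to 0.073, Cdkn2d from -0.27 to 0.50, Rb1 from -0.15 to 0.14, Rbl2 from -0.031 to 0.21, Pcna from -0.11 to 0.25, Id1 from -0.43 to 0.16 and Csf2rb, added after seeing the data, from -0.72 to 0.018. It moved Cdkn1b from 0.0054 to 0.44, Ccnd1 from 0.096 to 0.30 and Ccnd3 from 0.062 to 0.23 without a change of sign. With the block and without 1 number, Ccnd1 ran from 0.049 to 0.39 and Ccnd3 from 0.024 to 0.21. With the block, Cdk4 was 0.070 without replicate 1, Rb1 0.0053 without replicate 2, and Pcna -0.057 and -0.023 without replicates 1 and 2. Pcna was -0.0014 with median centring, with and without the block. Median centring also turned the replicate 3 difference of Ccnd3 to 0.054 and of Cdk6 to 0.056. Quantile normalization moved that of Cdk6 to -0.25 and that of Ccnd1 from 0.00086 to 0.18. The scalings tried on replicate differences were added after seeing the data. The adjusted p of Ccnd2 ran from 0.0575, with quantile normalization, to 0.458 over the alternatives combined with the block.

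The count of all genes called, 6 in the main design, was 2 with a pseudocount of 1, 0 without a filter (893 with an unadjusted p under 0.05 in limma), 3 without a variance trend, 26 with array weights, 0 at a threshold of 0.01, 10 at 0.1 and 0 to 7 without 1 array. With the replicate block it was 301. Combined with the block it was 38 without a variance trend, 310 with robust eBayes, 67 without a filter, 265 with the stricter filter, 283 and 295 with pseudocounts of 1 and 64, 275 with quantile normalization, 269 with median centring, 235 with averaged probe sets, and 168, 339 and 364 without replicate 1, 2 and 3. The count of members called was 0 under each of these alternatives. The thresholds of 0.01 and 0.1 were applied only without the block. With the block the limma adjusted p of Ccnd2, 0.0911, lay under 0.1. The cause of these changes was not tested.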
